A study of Gallus gallus with 4 samples.

Results

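A group of 6 genes typical of epithelia was followed in neural crest cells of the chick embryo, namely CDH1 (listed as CADH1_CHICK), ESRP1 (listed under its older symbol RBM35A), ESRP2 (ESRP2_CHICK), SPINT1, SCNN1B and GJB1. They are 6 of the 212 rows of the authors' deposited table, and each was found there by its name in the gene column. They were chosen by their known roles from a table whose rows were all higher in cranial than in trunk crest. All 212 rows were also marked significant by the authors. The direction and the significance are therefore properties of the choice. The values below describe the size of the difference without testing it.

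The cranial group consisted of 2 libraries of head neural crest at Hamburger-Hamilton stage HH9+, labelled by the NC1 enhancer of FoxD3, and the trunk group of 2 libraries at stage HH14, labelled by the NC2 enhancer of the same gene. In both groups the enhancer was electroporated into embryos, and live GFP-positive cells were sorted from dissociated heads or trunks before RNA extraction and cDNA amplification. The enhancer defines which cells were collected, and axial level, stage and enhancer changed together, so their contributions cannot be told apart. The labels name no strain and do not say whether the libraries of a group came from separate embryos. The table gives 1 value per group in FPKM (reads of a transcript corrected for its length and for library size), so the depth and the spread between libraries are unknown.

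Neural crest cells arise in the epithelium of the neural folds and leave it by an epithelial-mesenchymal transition, in which cells give up stable junctions and become migratory. E-cadherin is the main adhesion molecule of many epithelia, and in the cranial crest of the chick its replacement by N-cadherin involves the repressor ZEB2. The ESRP proteins bind pre-mRNA and promote the epithelial splice forms of transcripts such as FGFR2, CD44 and CTNND1, and their loss accompanies the mesenchymal state in mammalian cells.

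All 6 genes were higher in cranial than in trunk crest, by between 3.92-fold (ESRP2) and 8.46-fold (GJB1), in the authors' deposited table. The background for this count is 100% of the 212 rows, so the direction says nothing particular about the genes. The sums of FPKM over all 212 rows were 3.02-fold apart. Summed over the 6 genes, the authors' deposited table gave 116 FPKM in cranial and 25.1 FPKM in trunk crest, a 4.61-fold difference. SPINT1 made up 53.9% of the cranial and 56.8% of the trunk total and CDH1 21.5% and 22.5%, as computed from the authors' deposited table. ESRP2 contributed 9.70% and 11.4% and ESRP1 2.21% and 2.12%. The shares of GJB1 (9.90% and 5.40%) and SCNN1B (2.86% and 1.75%) were also larger in the cranial group, by more than that of ESRP1.

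**Figure D1:**
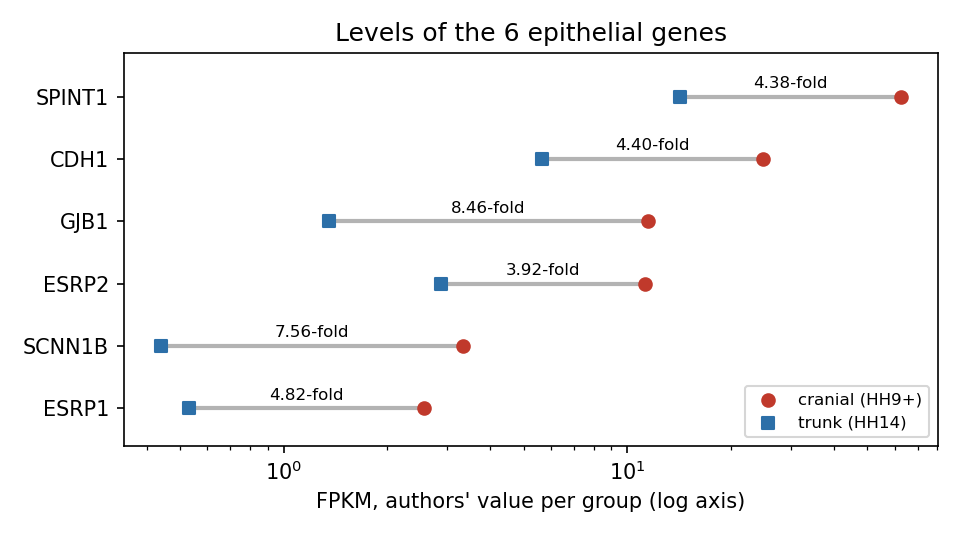
FPKM (log axis) of each of the 6 genes as the authors' single value for cranial crest at HH9+ (red circles) and trunk crest at HH14 (blue squares), with the fold printed on the line that joins them. SPINT1 is highest in both groups (62.4 and 14.3 FPKM), and GJB1 has the widest gap.

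Among the adhesion genes, CDH1, which encodes the calcium-dependent homophilic cell adhesion molecule E-cadherin, had a cranial value of 24.9 FPKM and a trunk value of 5.65 FPKM in the authors' deposited table. Its trunk level was thus above 1 FPKM and exceeded the cranial level of both SCNN1B and ESRP1. The authors' test statistic was read as the log2 fold divided by its error, and the quotient of fold and statistic is called the implied standard error (SE) here. A standard normal distribution of the statistic gave the deposited p of each of the 6 genes to within 1%. That match does not show how the statistic was formed, so the reading remains an assumption. On that scale the cranial-over-trunk difference of CDH1 was log2 2.14 with an implied SE of 0.52, and q was 0.00283 in the authors' deposited table. The authors' deposited table places CDH1 on chromosome 11, bases 20822370 to 20836088. In the RefSeq gene table of assembly GRCg7b the coding gene next to CDH1 is CDH3, a related classical cadherin also known as K-CAM, which has no row under that symbol. How reads shared by such related neighbours were counted is not stated.

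GJB1 encodes connexin 32, a subunit of gap junction channels that join the cytoplasm of neighbouring cells, known from liver and from myelinating Schwann cells. The authors' deposited table lists it at 11.5 FPKM in the cranial and 1.36 FPKM in the trunk group. This was the largest fold of the 6 genes and also the least precise, at log2 3.08 with an implied SE of 0.85 (q = 0.0145 in the authors' deposited table). The authors' deposited table gives it a locus of 688 bases on chromosome 4, bases 2304598 to 2305285, the 2nd shortest of its 212 rows. Coordinates are written here as deposited, and their genome build is uncertain (galGal4 is named, but some sequence names of the table are not of that build). The next listed row on chromosome 4 begins 2048 bases further on and carries only a protein accession. The authors' deposited table gives it 3.76 FPKM in cranial and 0.900 FPKM in trunk crest, 4.18-fold apart (q = 0.0180).

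Both splicing regulators were listed, at different levels. The authors' deposited table lists ESRP2 with a cranial value of 11.2 FPKM and a trunk value of 2.87 FPKM. ESRP1 had a cranial value of 2.56 FPKM and a trunk value of 0.532 FPKM in the authors' deposited table. ESRP2 was the more abundant paralog in both groups, 4.39 times the level of ESRP1 in cranial and 5.40 times in trunk crest on the per-length FPKM scale. The sum of the pair was 13.8 FPKM against 3.41 FPKM, 4.06-fold higher in cranial crest. ESRP2 differed by log2 1.97 (implied SE 0.27, q = 2.13e-10 in the authors' deposited table), which was the smallest fold and the smallest implied SE among the 6 genes. ESRP1 differed by log2 2.27 (implied SE 0.65, q = 0.0213 in the authors' deposited table). Between the paralogs, the log2 fold of ESRP1 exceeded that of ESRP2 by 0.30, with a 95% interval from -1.08 to 1.68 from the implied SEs, taking the errors of the genes as independent. The authors' deposited table places ESRP2 on chromosome 11, bases 3223910 to 3267568, and ESRP1 on chromosome 2, bases 130938822 to 130959528. Of 11 transcripts on a list of known ESRP splice targets, FGFR2, CD44 and CTNND1 among them, 0 had a row under their symbols. A gene-level value does not show which splice form was present.

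SPINT1 encodes HAI-1, a membrane-bound Kunitz-type inhibitor of the epithelial protease matriptase and of the activator of hepatocyte growth factor. It was the most abundant of the 6 genes in both groups, with a cranial value of 62.4 FPKM and a trunk value of 14.3 FPKM in the authors' deposited table. Its difference was log2 2.13 with an implied SE of 0.37 (q = 2.59e-06 in the authors' deposited table). SPINT1 and CDH1 differed between the groups by nearly the same fold, 4.38 and 4.40, and SPINT1 was 2.51 times the level of CDH1 in cranial and 2.53 times in trunk crest. With errors again taken as independent, the interval of the difference between their log2 folds ran from -1.24 to 1.26. The near equality is thus within a wide error. The authors' deposited table places SPINT1 on chromosome 5, bases 26403621 to 26419755.

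SCNN1B encodes the beta subunit of the epithelial sodium channel, which carries sodium across the apical membrane of absorptive epithelia. The authors' deposited table lists a cranial value of 3.32 FPKM and a trunk value of 0.439 FPKM, the lowest trunk level of the 6 genes. The difference was log2 2.92 with an implied SE of 0.76 (q = 0.00729 in the authors' deposited table). Its locus in the authors' deposited table is chromosome 14, bases 7002107 to 7011192. SCNN1G, the gene of the gamma subunit, is the next coding gene in the RefSeq table of GRCg7b and has no row under its symbol, and neither has SCNN1A, the gene of the alpha subunit. The nearest listed row on chromosome 14 is UBFD1, 41.2 kb away, for which the authors' deposited table gives 33.9 FPKM in cranial and 11.6 FPKM in trunk crest, 2.92-fold apart (q = 0.0367). For the other 4 genes the nearest listed row lay 197 kb or more away.

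**Figure D2:**
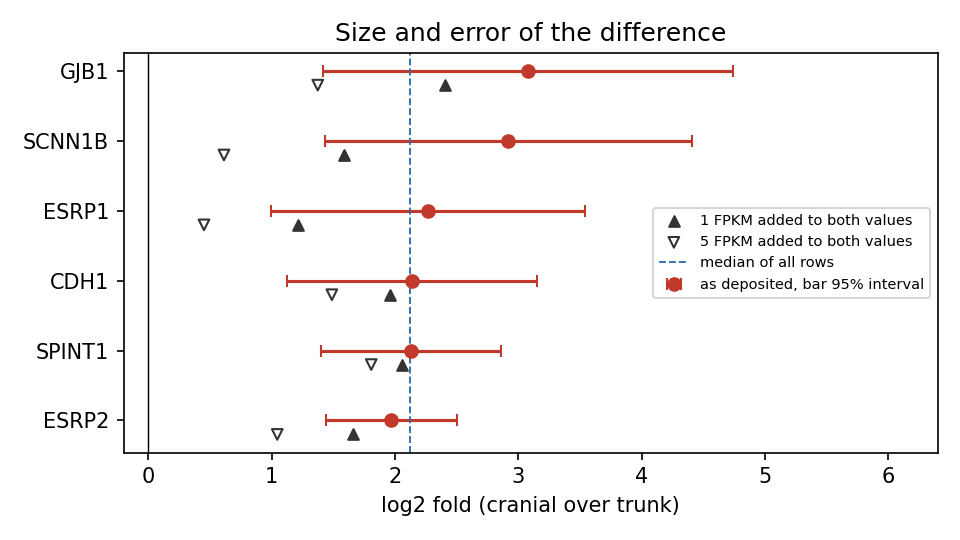
Log2 fold of cranial over trunk for each of the 6 genes, as deposited (red, bars the 95% interval from the implied SE) and with 1 or 5 FPKM added to both values (triangles), and the median of all 212 rows (dashed line, 2.12). The bars of all 6 genes overlap, and the added FPKM moves SCNN1B and ESRP1 furthest.

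The order of the genes by cranial level was SPINT1, CDH1, GJB1, ESRP2, SCNN1B and ESRP1. The order by trunk level exchanged neighbours in 2 places, since ESRP2 stood above GJB1 and ESRP1 above SCNN1B. GJB1 was 1.02 times the level of ESRP2 in cranial but 0.472 times in trunk crest, and SCNN1B was 1.30 times the level of ESRP1 in cranial but 0.825 times in trunk crest. Without values per library, it is not known which neighbours in either order differ beyond the spread between libraries. The 95% intervals of the log2 folds overlapped in all 15 pairs of genes. Even for the widest gap, GJB1 over ESRP2, the log2 difference of 1.11 had an interval from -0.64 to 2.86. That interval too takes the errors of the genes as independent, although both folds come from the same libraries.

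The order by test statistic was quite different from the order by fold. ESRP2, with the smallest fold, had the highest statistic of the 6 (7.26, rank 13 of 212), and SPINT1 followed at 5.72 (rank 27) in the authors' deposited table. GJB1, with the largest fold (rank 53 of 212), had a statistic of 3.63 (rank 144), and ESRP1 the lowest at 3.50 (rank 162) in the authors' deposited table. CDH1 and SCNN1B lay between, at 4.12 and 3.85. The fold is thus most precisely given for ESRP2 and SPINT1, where the 95% intervals ran from 2.71-fold to 5.66-fold and from 2.64-fold to 7.26-fold. For GJB1 the interval ran from 2.67-fold to 26.8-fold, and for SCNN1B from 2.70-fold to 21.2-fold. Only rows marked significant were listed, with a lowest statistic of 3.18, so every such interval had to lie above equal levels. A gene with a large implied SE could be listed only with a large fold.

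**Figure D3:**
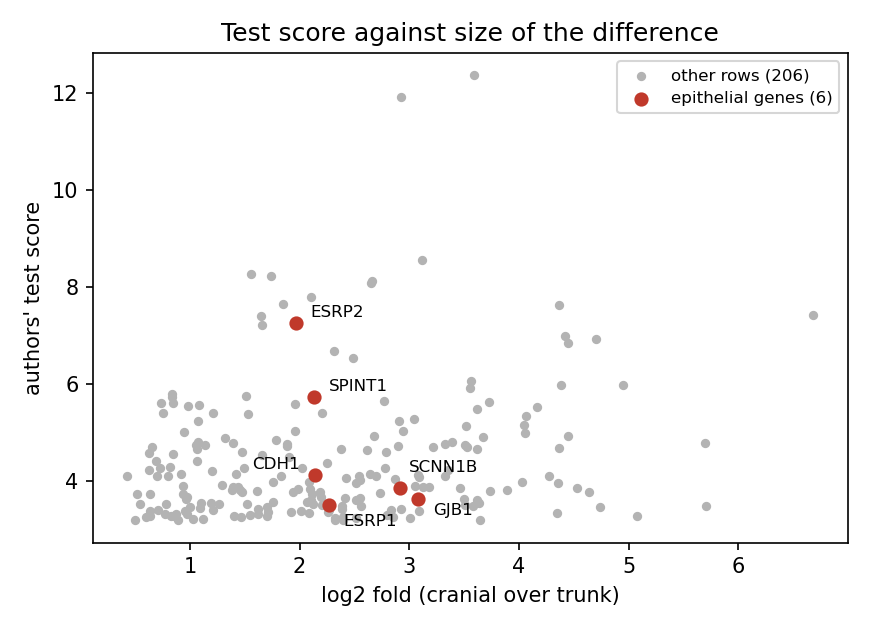
The authors' test score against the log2 fold of cranial over trunk for the 6 genes (red) and the other 206 rows (grey). ESRP2 and SPINT1 have high scores at folds near 4, while GJB1 and SCNN1B have larger folds with scores under 4.

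Several of the folds rest on low trunk levels. SCNN1B and ESRP1 were under 1 FPKM in trunk crest, as were 63 of all 212 rows in the authors' deposited table. Adding 1 FPKM to each group's value gave SCNN1B a fold of 3.001 in place of 7.56, and ESRP1 one of 2.33 in place of 4.82. GJB1, with 1.36 FPKM in trunk crest, went from 8.46-fold to 5.29-fold and was still first of the 6. SPINT1 at 4.16-fold, CDH1 at 3.89-fold and ESRP2 at 3.16-fold then stood above SCNN1B.

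The medians of the 6 genes lay near those of the whole table, while single genes were spread over it, with ranks by cranial level from 24 (SPINT1) to 193 (ESRP1) of 212. The median log2 fold of the 6 was 2.20, against 2.12 over the 212 rows, and their median cranial level was 11.4 FPKM, against 12.1 FPKM, in the authors' deposited table. Of the 6 genes, 5 were at least 4-fold higher, as were 54.2% of all rows. The corresponding count at 8-fold was 1 of 6 genes (GJB1), beside 26.9% of all rows. After adding 1 FPKM to each value, 2 of the 6 genes (GJB1 and SPINT1) and 25.5% of all rows were at least 4-fold higher. A q under 0.01 was given for 4 of the 6 genes (all but GJB1 and ESRP1) and for 63.2% of all rows in the authors' deposited table. In implied SE the genes ranged from 0.27 to 0.85 with a median of 0.58, against a median of 0.51 over all rows.

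**Figure D4:**
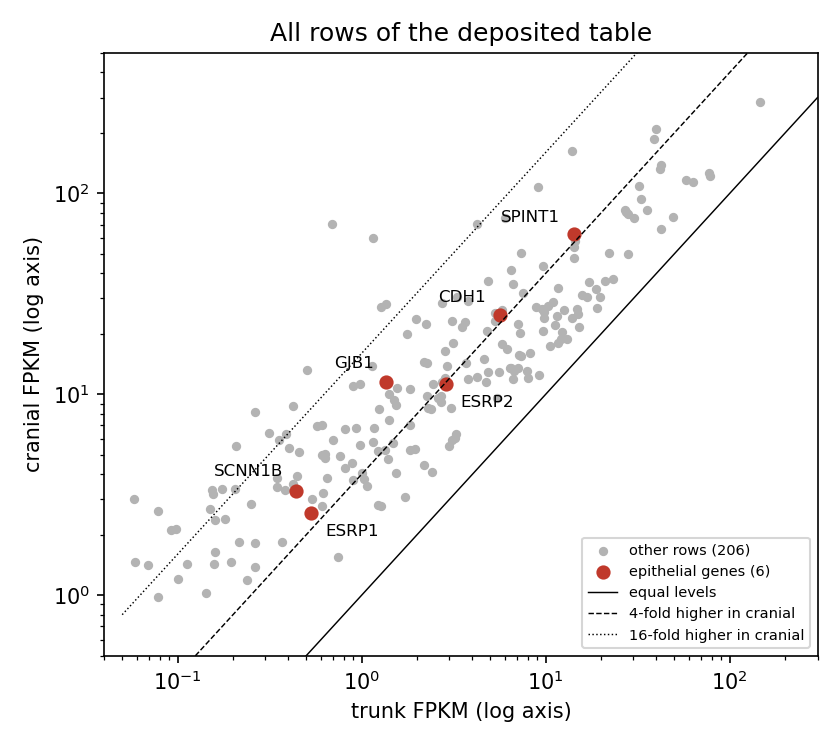
Cranial against trunk FPKM (both log axes) for the 6 genes (red) and the other 206 rows of the table (grey), with lines of equal level, 4-fold and 16-fold. The 6 genes lie between 3.92-fold and 8.46-fold, within the cloud of the other rows.

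For each gene the named row with the most similar pair of values was sought, by the distance between the log2 levels over the 2 groups. ESRP2 lay closest to the adenylyl cyclase gene ADCY8, at a distance of 0.088, and CDH1 to the metabotropic glutamate receptor gene GRM4, at 0.091. SPINT1 lay closest to ENC1 (0.10), SCNN1B to the cation channel gene TRPM2 (0.19), GJB1 to RNF122 (0.20) and ESRP1 to CNTP5_CHICK, a contactin-associated protein (0.22). With 2 values per gene, such likeness describes level and fold only.

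The genes around these 6 were sought through 10 lists of epithelial and transition genes, with 166 different genes in all. The lists included the 6 genes themselves, so their presence below was fixed in advance. The 6 genes described here were the only listed genes with a row, 3 of them under the symbol as listed and 3 through a translated name. Of 23 genes for cadherins and adherens junctions 1 was present (CDH1), and of 17 for gap junctions 1 (GJB1). Of 14 splicing regulators, general ones such as PTBP1 included, 2 were present (ESRP1 and ESRP2). Of 17 genes for membrane proteases and Kunitz inhibitors 1 was present (SPINT1), and of 13 for the epithelial sodium channel and its regulators 1. The lists of desmosome and keratin genes (20), tight junction and polarity genes (26) and epithelial transcription factors (15) had 0 rows under their symbols. The same held for 12 transcription factors of the transition and of neural crest, SNAI2, ZEB2, SOX9 and FOXD3 among them. Of the 166 listed genes 146 have their symbol in the RefSeq gene table of GRCg7b, among them 14 of the 20 desmosome and keratin genes and 22 of the 26 tight junction and polarity genes, and the other entries may have no chicken symbol to match. The 70 rows named only by an accession or locus number were not searched, and genes without a row may or may not have differed.

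CDH1 and other genes of the group are also expressed in surface ectoderm, and a sorted population can include cells of other types. In bulk RNA, fewer cells of a type and less RNA per cell cannot be told apart. Of 19 markers of surface ectoderm and placodes, such as EPCAM, TP63 and KRT18, 0 had a row under their symbols, and the same count was 0 for the neural tube (10 markers), endoderm (9) and mesoderm (10). Of the 19 markers, 16 have their symbol in the RefSeq gene table of GRCg7b. Only genes marked significant and higher in cranial crest were listed. These counts therefore do not show how strongly the markers were expressed in either group. Among 11 neural crest markers SOX8 had a row, while FOXD3 and SOX10 had none under their symbols. A crest marker at similar levels in both groups could have no row, so the cell type label could not be checked from these rows. The part of other cells in these differences was not tested.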

How the data were processed

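RNA from 4 libraries was measured, 2 per group. TopHat, Cufflinks and Cuffdiff 2.1 and assembly galGal4 are named, per the submitters' processing notes, without role or order. The deposited table holds 1 FPKM value per group, a unit inferred from its Cuffdiff column names because the file headers state none. It also holds the authors' log2 fold (trunk over cranial, turned round here), test score, p-value and q-value. Some sequence names (chrUn_random) are not those of galGal4, so it is uncertain which build the coordinates use. The members and lists were chosen with earlier results of these data known. The log2 fold equalled the ratio of the values within 1.2e-05, and a normal distribution of the score gave the deposited p to within 1% in all 193 rows whose p was 1e-10 or more. The implied SE is the log2 fold divided by the score, a reading the headers do not state. Its 95% normal interval covers the authors' error model only, and not the selection of significant rows. Named genes were the 6 members, list members, and the nearest rows by level and by locus, the last by distance only beyond 50 kb, a limit set after the values were seen. Tests per library, planned for counts or FPKM per library, were not run because values per library were not analysed here. Sequence searches were not run for want of sequences. Python 3.11.15, pandas 2.3.3 and scipy 1.17.1 were used. The SE calculation was run on simulated scores built with the same formula, which checks the code but not the reading of the score. Pseudocounts and filters were varied.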

Additional observations from a re-analysis of the deposited data

How the results depend on the processing

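No alternative could turn a direction, since the same constant was added to both values and no row of the table was higher in trunk. Of 39 alternatives, 24 stayed within a set limit and 15 went beyond it. The limit was the implied SE for the log2 fold of a gene, and 1.5 times for a count. The median of the 6 genes has no implied SE of its own, so their median implied SE of 0.58 was used. By that wide limit a median of 1.81, with 1 FPKM added, still counted among the 24. With 0.5 FPKM added to both values, the log2 fold became 2.02 for SCNN1B and 1.57 for ESRP1. With 1 FPKM added it became 1.59 for SCNN1B, 1.22 for ESRP1 and 1.66 for ESRP2. The genes at least 4-fold higher then numbered 2 (25.5% of all rows). For GJB1 the log2 fold became 2.40 in place of 3.08, a larger shift than that of ESRP2. It stayed within the limit only because the implied SE of GJB1 is larger. With 5 FPKM added it became 1.37 for GJB1, 0.61 for SCNN1B, 0.45 for ESRP1, 1.49 for CDH1 and 1.05 for ESRP2, the median became 1.21 (0.84 over all rows) and the genes at least 4-fold higher numbered 0 (16 of all 212 rows). At least 8-fold was reached by 1 gene (26.9% of all rows), and 3 rows matched the lists by symbol as listed. The median was 2.13 under both filters on level and under the filter on q, and 2.20 without shared loci. Both filters on level kept the same genes. Under these and the filter on q, CDH1 and SPINT1 were the middle genes, so the equal medians are not separate checks. None of the 6 genes shared a locus, so the filter on shared loci removed nothing. The count at 2-fold was also fixed, since the smallest fold was 3.92. Both settings are among the 24. No paired analysis was possible because each group has a single deposited value and only letter A is common to both. The fits without single libraries, the other count normalizations and the promoter windows were not run. Depth is unknown, so its limit on the low trunk values of SCNN1B and ESRP1 cannot be given.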
